A study of Mus musculus with 3 samples.

Results

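Genes for making and sensing prostaglandin E2, and the bradykinin receptor genes, were followed in CT26.WT cells treated with S100a8 or S100a9. The rule took each probe set annotated with the symbol Ptgs1, Ptgs2, Ptges, Ptger1, Ptger2, Ptger4, Bdkrb1 or Bdkrb2. It found 13 probe sets of 7 genes, out of 18193 named genes on the array. Ptgs1 had no probe set under its symbol in the annotation and is not analysed here. The 8 genes were chosen by their pathway with results of these arrays in view, among them the low Bdkrb2 log2 ratios against control, so their values are a description.

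CT26.WT cells are a line of mouse colon carcinoma, and S100a8 and S100a9 are calcium-binding proteins that myeloid cells release. The S100a8 group received 4 µg/ml of mouse recombinant S100a8 protein for 24 h and the S100a9 group 4 µg/ml of mouse recombinant S100a9 protein for 24 h, each after 12 h without serum. The control was also held without serum, but its labels name BSA in one field and saline in others, and give no time for it. Each group was 1 culture of 1 cell line on 1 Affymetrix mouse expression array, so there was no replicate and no test. Values are deposited MAS5 signals, which are linear brightness values per probe set. Median signals were 78.6, 73.6 and 76.1 for the S100a8, S100a9 and control arrays. The floor, below which a signal was treated as too dim to compare, was the median of all signals, 76.0. A gene was compared if the mean log2 signal of its brightest probe set lay above the floor, as it did for 11138 genes.

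Cyclooxygenases, of which Ptgs2 encodes the inducible form, turn arachidonic acid into prostaglandin H2, and the microsomal synthase encoded by Ptges turns that into prostaglandin E2. The product acts on G protein-coupled receptors, among them EP1 (Ptger1), which raises calcium, and EP2 (Ptger2) and EP4 (Ptger4), which raise cyclic AMP. Bradykinin acts on a constitutive B2 receptor (Bdkrb2) and an inducible B1 receptor (Bdkrb1), and B2 receptor signalling can release arachidonic acid for prostaglandin synthesis. In colon tumours Ptgs2 and prostaglandin E2 are known for promoting growth.

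The regions before the starts of the 3 members with signals above the floor are shown because these are the members whose signals could be compared. The sequences are from RefSeq on GRCm38.p6 and run 5′ to 3′ over the 250 bases before the annotated start, and capitals mark the motifs found.
Ptgs2 (chr1:150099781-150100030, + strand): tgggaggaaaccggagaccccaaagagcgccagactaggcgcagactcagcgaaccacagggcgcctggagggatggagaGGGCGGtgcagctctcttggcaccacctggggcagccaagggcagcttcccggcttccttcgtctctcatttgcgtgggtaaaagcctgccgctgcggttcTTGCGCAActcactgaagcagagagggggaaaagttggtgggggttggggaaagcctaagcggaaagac
Ptges (chr2:30903298-30903547, - strand): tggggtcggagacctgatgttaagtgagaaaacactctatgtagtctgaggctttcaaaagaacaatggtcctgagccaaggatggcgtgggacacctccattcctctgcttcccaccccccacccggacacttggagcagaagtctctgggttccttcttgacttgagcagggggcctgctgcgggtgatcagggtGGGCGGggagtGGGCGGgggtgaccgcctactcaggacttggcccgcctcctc
Bdkrb2 (chr12:105562922-105563171, + strand): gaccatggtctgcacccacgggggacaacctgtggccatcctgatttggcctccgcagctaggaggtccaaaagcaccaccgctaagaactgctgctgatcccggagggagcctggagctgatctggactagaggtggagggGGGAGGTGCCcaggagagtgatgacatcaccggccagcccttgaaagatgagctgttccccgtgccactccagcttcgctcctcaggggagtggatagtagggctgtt
The Ptgs2 region reaches into the span of the lncRNA gene Ptgs2os. The Ptges region lies within the span of Ptges itself, which has further transcripts, and of the lncRNA gene Gm52550, while the Bdkrb2 region overlaps no annotated gene span.

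Both strands of each 300-base window, including the 50 bases after the start, were searched for 6 motifs. These were NF-kB (GGGANNNNCC), the CRE core (TGACG), the E-box (CACGTG), C/EBP (TTGCNNAA), the Sp1 GC box (GGGCGG) and the TATA box (TATAAA). The Ptgs2 window held a GC box 170 to 165 bases and a C/EBP match 69 to 62 bases before the start, and this match reads the same on both strands. After the annotated start it held a CRE core on the minus strand at bases 14 to 18 and an E-box at bases 17 to 22, which overlap. All positions count from the annotated start, and where transcription begins in these cells was not measured. The Ptges window held 2 GC boxes, at 53 to 48 and 42 to 37 bases before the start. The Bdkrb2 window held 1 NF-kB match, 108 to 99 bases before the start. Of all 32851 windows of this length, 20.7% held the NF-kB letters, 20.8% the CRE core, 7.15% the E-box, 10.8% the C/EBP letters, 35.7% the GC box and 13.6% the TATA box. These matches are letters in a window and describe no binding.

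Of the 7 measured genes, Ptgs2, Ptges and Bdkrb2 had signals above the floor on all 3 arrays, on each of their 7 probe sets. The other 4, Ptger1, Ptger2, Ptger4 and Bdkrb1, lay below it on every array and on each of their 6 probe sets. On the brightest probe set of each gene, Ptgs2, Ptges and Bdkrb2 were below control with either protein, and Bdkrb2 was the 1 member at least 2-fold lower. Of all compared genes, 0.287% were at least 2-fold lower with S100a8 and 0.144% with S100a9, and 0.0449% were at least 2-fold higher with S100a8 and 0.00898% with S100a9. Between S100a9 and S100a8, 0 members were 2-fold apart, against 0.018% of all genes lower and 0% higher. Since the low Bdkrb2 ratio helped to choose these genes, nothing is read from the count. The median log2 ratio of the 3 compared members was −0.34 with S100a8 and −0.32 with S100a9, in both cases the value of Ptges. Medians over all compared genes were 0.01 with S100a8 and 0.005 with S100a9, and nothing is read from this difference either. Both sets of ratios share the control array. In bulk RNA of a culture, fewer cells with a transcript and less of it per cell cannot be told apart.

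**Figure D1:**
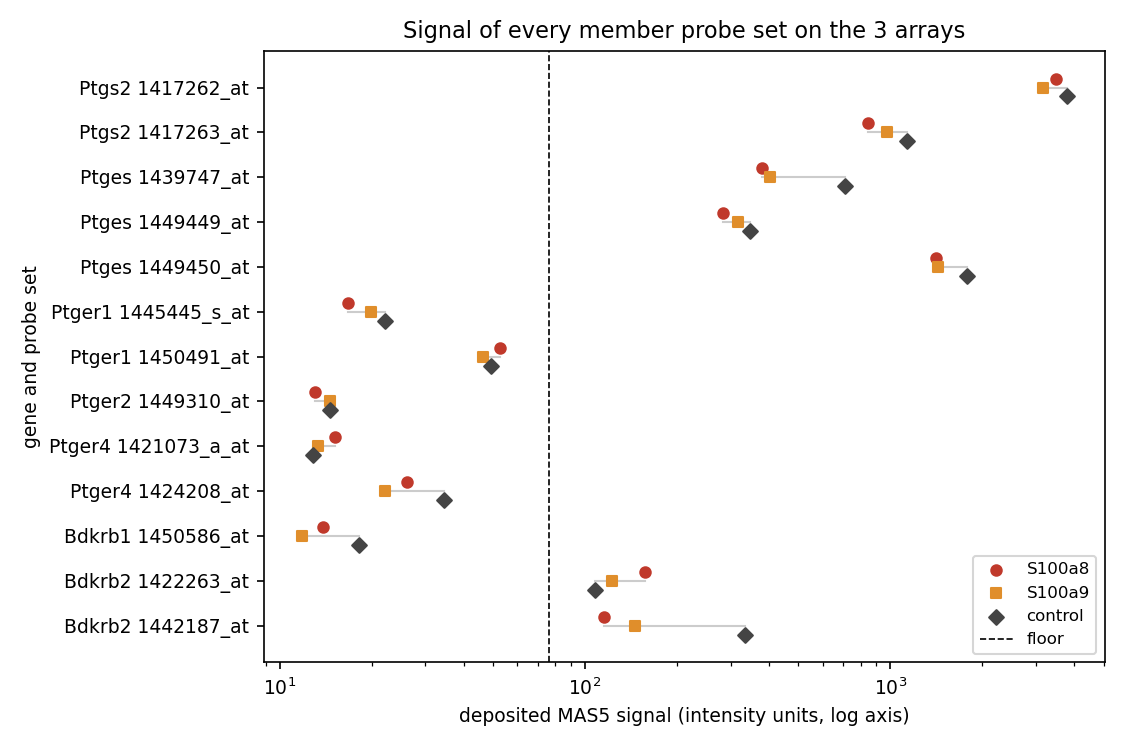
Deposited MAS5 signal (log axis) of each member probe set for S100a8, S100a9 and control, 1 point per array, with the floor of 76.0 as a dashed line. The Ptgs2 and Ptges points of both treated arrays lie left of the control point, the Bdkrb2 probe sets run in opposite orders, and the prostaglandin receptor and Bdkrb1 points lie below the floor.

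Ptgs2 was well above the floor on every array, and its 2 probe sets were slightly lower with either protein. On probe set 1417262_at the signal was 3502 under S100a8, 3165 under S100a9 and 3778 in the control. On 1417263_at it was 844 under S100a8, 977 under S100a9 and 1138 in the control. The control array was thus the highest for both, while the lowest array was S100a9 for the first probe set and S100a8 for the second. The log2 ratios against control were −0.11 and −0.43 with S100a8 and −0.26 and −0.22 with S100a9, in the same order of probe sets. Between the proteins, S100a9 against S100a8 was −0.15 on the first and 0.21 on the second. The 2 probe sets therefore give no common order of the proteins.

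These Ptgs2 differences can be set beside probe sets of like brightness, in 20 bins of 1121 or 1122 probe sets. With S100a9, 2.05% of the probe sets as bright as 1417262_at had a ratio as low as its −0.26, and the central 95% of that bin ran from −0.24 to 0.18. With S100a8, 14.1% had a ratio as low. For 1417263_at the shares as low were 4.64% with S100a8 and 11.0% with S100a9. These shares describe the arrays and are no test.

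Ptges, the prostaglandin E synthase gene, was below control on all 3 of its probe sets with either protein, but the size differed between them. Probe set 1439747_at had signals of 381 in S100a8-treated, 404 in S100a9-treated and 713 in control cells. Probe set 1449450_at, the brightest, had 1416 under S100a8, 1437 under S100a9 and 1788 in the control. Probe set 1449449_at had 283 under S100a8, 318 under S100a9 and 346 in the control. In each of them the S100a8 array was lowest, the S100a9 array next and the control highest.

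The first of these, 1439747_at, was 1.87-fold lower with S100a8 (log2 ratio −0.90) and 1.76-fold lower with S100a9 (−0.82). The log2 ratios of 1449450_at were −0.34 with S100a8 and −0.32 with S100a9, and those of 1449449_at were −0.29 with S100a8 and −0.12 with S100a9. Among probe sets as bright as 1439747_at, 0.714% had a ratio as low with S100a8 and 0.357% with S100a9. For 1449450_at these shares were 6.87% with S100a8 and 4.28% with S100a9, and for 1449449_at 16.1% with S100a8 and 27.1% with S100a9. Between S100a9 and S100a8 the 3 probe sets differed little, with log2 ratios of 0.09, 0.02 and 0.16 for 1439747_at, 1449450_at and 1449449_at. Per the annotation, 1449449_at and 1449450_at were designed on the same mRNA record and 1439747_at on another sequence record.

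The prostaglandin E2 receptor genes were dim throughout. Ptger1 had signals of 52.5 in S100a8-treated, 46.3 in S100a9-treated and 49.2 in control cells on probe set 1450491_at, and signals of at most 22.1 on 1445445_s_at. Ptger2 had 13.0 under S100a8, 14.7 under S100a9 and 14.6 in the control. Ptger4 had 26.0 under S100a8, 22.1 under S100a9 and 34.5 in the control on 1424208_at, and on 1421073_a_at it had 15.2 under S100a8, 13.3 under S100a9 and 12.8 in the control. The 2 probe sets of Ptger4 put the control array at opposite ends, and no ratio was drawn from signals this dim. A signal below the floor does not show that a transcript was absent.

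Bdkrb1, which encodes the inducible B1 receptor, was also below the floor, with signals of 13.9 in S100a8-treated, 11.8 in S100a9-treated and 18.2 in control cells on its 1 probe set. It lies next to Bdkrb2 in the RefSeq gene order.

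Bdkrb2, the B2 receptor gene, had 2 probe sets that differed from control in opposite directions. On 1442187_at the signal was 115 under S100a8, 146 under S100a9 and 335 in the control. On 1422263_at it was 157 under S100a8, 122 under S100a9 and 108 in the control. The control array was the highest on the first and the lowest on the second, and the order of all 3 arrays was turned round.

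By the brightness rule, 1442187_at stands for Bdkrb2. The rule averages all 3 arrays, so the high control signal, 335 against 108 on 1422263_at, helped to choose this probe set. On the S100a8 array 1422263_at was the brighter (157 against 115), and on the S100a9 array 1442187_at was (146 against 122). Probe set 1442187_at was 2.91-fold lower with S100a8 (log2 ratio −1.54) and 2.30-fold lower with S100a9 (−1.20). These ratios ranked 6th and 7th from the lowest of 11138 compared genes. Since the low Bdkrb2 ratios helped to choose the gene, the ranks and the shares given for 1442187_at only describe it. On 1422263_at the log2 ratios were 0.55 with S100a8 and 0.19 with S100a9. In probe sets as bright as 1442187_at, 0.178% had a ratio as low with S100a8 and 0.267% with S100a9. In probe sets as bright as 1422263_at, 5.08% had a ratio as high with S100a8 and 15.4% with S100a9. For S100a9 against S100a8 the ratios were 0.34 on 1442187_at and −0.36 on 1422263_at.

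The 2 Bdkrb2 probe sets lay unusually far apart for probe sets of 1 gene. Over the 4948 genes with at least 2 probe sets above the floor, the 2 brightest differed in their log2 ratio by a median of 0.15 for S100a8 against control, and by 0.58 at the 95th percentile. For Bdkrb2 the difference was 2.09, and it was the 1 gene of the 4948 that differed by as much. For S100a9 against control it was 1.39, and 3 of the 4948 genes, Bdkrb2 among them, were as far apart. The difference for Ptges was 0.57 with S100a8 and 0.50 with S100a9, and that for Ptgs2 was 0.32 with S100a8 and 0.04 with S100a9. Per the annotation, 1422263_at was designed on a RefSeq mRNA of Bdkrb2 and 1442187_at on a different sequence record. Which of them follows the receptor's coding transcript was not tested, so the direction for Bdkrb2 depends on the probe set.

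**Figure D2:**
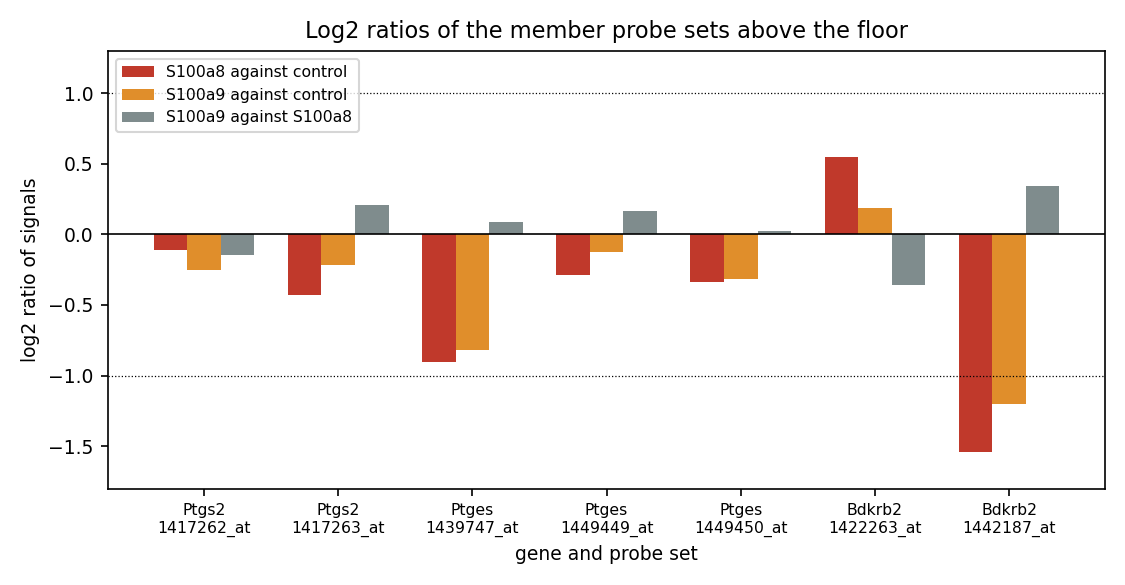
Log2 ratios of the 7 member probe sets above the floor for each protein against control and for S100a9 against S100a8; bars are single-array ratios with no error, and dotted lines mark 2-fold. All 5 Ptgs2 and Ptges probe sets lie below 0 against control, and Bdkrb2 lies at −1.54 (S100a8) and −1.20 (S100a9) on 1442187_at but at 0.55 (S100a8) and 0.19 (S100a9) on 1422263_at.

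**Figure D3:**
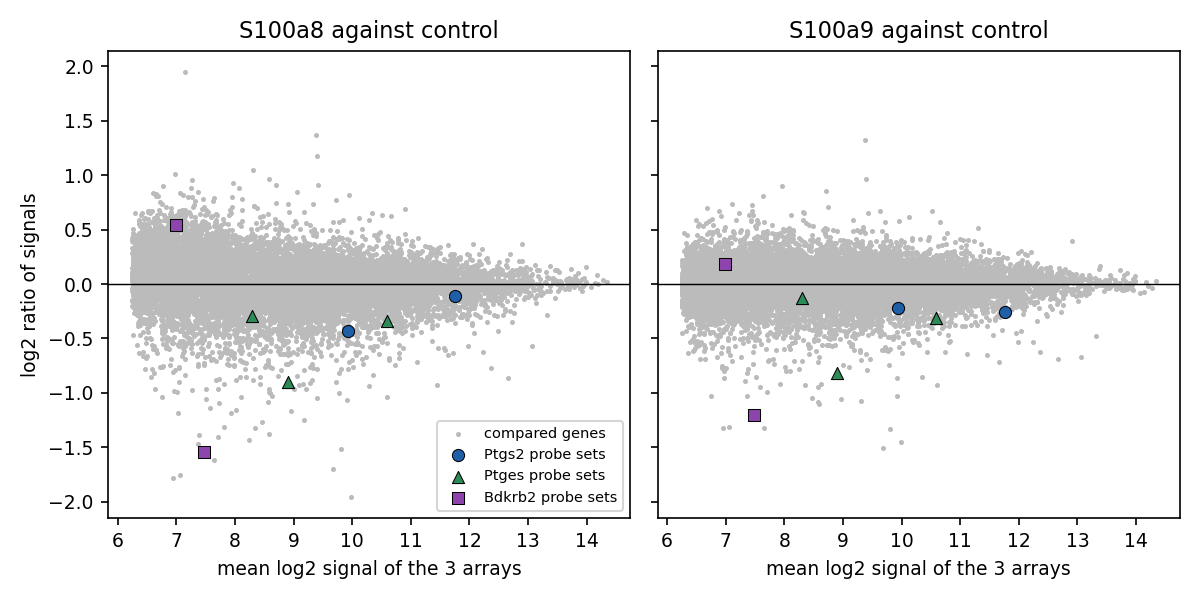
Log2 ratio against control (vertical axis) by mean log2 signal of the 3 arrays (horizontal axis) for S100a8 and S100a9, with 11138 compared genes as grey points and the probe sets of Ptgs2, Ptges and Bdkrb2 marked. The scatter widens toward dim signals, and Bdkrb2 on 1442187_at lies far below the cloud while Bdkrb2 on 1422263_at lies in its upper part.

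Likeness to Bdkrb2 was measured as the distance between pairs of log2 ratios (S100a8 and S100a9 against control) over 10714 genes above the floor on each array, using 1442187_at. The nearest was Cyp26b1, which encodes a retinoic acid hydroxylase, with signals of 118 in S100a8-treated, 149 in S100a9-treated and 342 in control cells and a distance of 0.002. Next came the chemokine gene Ccl20 (0.13), the NF-kB inhibitor gene Nfkbie (0.14), Acod1, which encodes the itaconate-producing enzyme (0.18), and the cytokine gene Lif (0.20). With only 3 arrays, the measure rests on 2 ratios that share a control, and it holds for 1442187_at alone.

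Other genes of the pathway were taken from 9 lists of 154 genes, of which 143 had a probe set and 95 were compared. With S100a8, 50 of the 95 were lower and 45 higher, with a median log2 ratio of −0.003, and with S100a9 also 50 and 45, with a median of −0.009. Of all compared genes, 47.5% were lower with S100a8 and 48.1% with S100a9. At least 1.5-fold lower were 4 of the 95 with S100a8 (4.21%), against 1.91% of all genes, and 2 with S100a9 (2.11%), against 0.853%. None of the 95 was at least 1.5-fold higher with either protein, against 1.13% of all genes with S100a8 and 0.251% with S100a9.

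Among the other prostanoid synthases, Ptgds, which makes prostaglandin D2, was the 1 related gene at least 2-fold lower with S100a8. Its brightest probe set, 1423859_a_at, had signals of 204 in S100a8-treated, 241 in S100a9-treated and 419 in control cells, or 2.05-fold lower with S100a8 and 1.74-fold lower with S100a9. Its other probe set, 1423860_at, had 67.0 under S100a8, 108 under S100a9 and 298 in the control. That was at least 3.92-fold lower with S100a8, whose signal lay under the floor, and 2.76-fold lower with S100a9. Both probe sets had the order S100a8, S100a9, control, lowest first. The other 2 compared synthases were above control: the log2 ratios of Ptges2, a second prostaglandin E synthase, were 0.24 with S100a8 and 0.26 with S100a9, and those of Ptgis, prostacyclin synthase, were 0.30 with S100a8 and 0.35 with S100a9.

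The arachidonate release list had medians of 0.07 with S100a8 and 0.01 with S100a9 (10 of 18 compared, 5 of them lower with S100a8 and 4 with S100a9). It is a mixed list, since not all of its genes release arachidonic acid. Pla2g4a, the cytosolic phospholipase A2 gene and the neighbour of Ptgs2 in the RefSeq gene order, had 1597 under S100a8, 1378 under S100a9 and 1195 in the control. Its log2 ratios of 0.42 with S100a8 and 0.21 with S100a9 thus had the opposite sign to those of Ptgs2. Faah, which degrades arachidonoyl ethanolamide, had ratios of 0.40 with S100a8 and 0.004 with S100a9, the phospholipase gene Pla2g6 had −0.38 with S100a8 and −0.04 with S100a9, and the arachidonate-activating gene Acsl4 had −0.003 with S100a8 and −0.35 with S100a9. Of the other 2 Acsl4 probe sets, 1418911_s_at had −0.22 with S100a8 and −0.26 with S100a9, and 1451828_a_at had −0.13 with S100a8 and 0.08 with S100a9. The Faah signals, 105 under S100a8, 80.0 under S100a9 and 79.8 in the control, were close to the floor.

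Prostaglandin breakdown and transport genes had medians of 0.03 with S100a8 and 0.10 with S100a9 (9 of 10 compared, 4 lower with each protein). Slco4a1, an organic anion transporter, had signals of 483 in S100a8-treated, 672 in S100a9-treated and 826 in control cells, which was 1.71-fold lower with S100a8 and 1.23-fold lower with S100a9. Slco2a1, the prostaglandin uptake transporter, had log2 ratios of 0.58 with S100a8 and 0.21 with S100a9, from a dim control signal of 83.8, and its other 3 probe sets were below the floor on average. Ptgr1, a prostaglandin reductase, had 0.35 with S100a8 and 0.19 with S100a9 and the aldo-keto reductase gene Akr1c14 had −0.22 with S100a8 and 0.25 with S100a9. Hpgd, the main prostaglandin-degrading dehydrogenase, was below the floor, with signals of at most 19.7.

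Most other prostanoid receptors were dim too, with 3 of 8 listed genes compared. The thromboxane receptor gene Tbxa2r had log2 ratios of 0.47 with S100a8 and −0.05 with S100a9, the prostaglandin D2 receptor gene Ptgdr 0.002 with S100a8 and −0.28 with S100a9, and Ptgfrn, a regulator of the prostaglandin F receptor, 0.04 with S100a8 and −0.04 with S100a9. The medians were 0.04 with S100a8 and −0.05 with S100a9. Lipoxygenase and leukotriene genes had 5 of 15 members compared and medians of 0.30 with S100a8 and 0.18 with S100a9, with all 5 above control under S100a8 and 4 under S100a9. Alox5 (0.38 with S100a8 and 0.28 with S100a9) and the epidermal lipoxygenase gene Aloxe3 (0.37 with S100a8 and 0.18 with S100a9) had the highest ratios with S100a8. With S100a9, Cysltr2, a cysteinyl leukotriene receptor gene, lay between them at 0.20. Ltc4s, leukotriene C4 synthase, had 0.24 with S100a8 and −0.18 with S100a9. The signals of Alox5, Aloxe3 and Ltc4s lay between 83.0 and 115, close to the floor. Lta4h, leukotriene A4 hydrolase, had 0.05 with S100a8 and 0.10 with S100a9.

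Kinin formation and breakdown genes had medians of 0.06 with S100a8 and 0.01 with S100a9 (9 of 20 compared, 3 lower with each protein). Klk1, tissue kallikrein, had log2 ratios of 0.38 with S100a8 and 0.18 with S100a9, and Ace, which degrades bradykinin, had 0.36 with S100a8 and 0.006 with S100a9. The Klk1 ratios rest on 1460050_x_at alone, since its other 3 probe sets had signals of at most 15.7. The carboxypeptidase genes Cpe (−0.17 with S100a8 and −0.15 with S100a9) and Cpd (−0.12 with S100a8 and 0.12 with S100a9) had the lowest ratios with S100a8, while with S100a9 Cpe was lowest and Cpd above control. Other Cpd probe sets above the floor had ratios from −0.13 to 0.03 with S100a8 and from −0.13 to 0.25 with S100a9. The kininogen gene Kng1 and the plasma kallikrein gene Klkb1 were below the floor.

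G proteins, effectors and receptor desensitisation genes had medians of −0.05 with S100a8 and −0.02 with S100a9 (25 of 32 compared, 14 lower with S100a8 and 13 with S100a9). The beta-arrestin gene Arrb1 had −0.49 with S100a8 and −0.26 with S100a9, the adenylate cyclase gene Adcy6 −0.45 with S100a8 and −0.35 with S100a9, the protein kinase A subunit gene Prkar2b 0.28 with S100a8 and 0.09 with S100a9, and the protein kinase C gene Prkca 0.09 with S100a8 and 0.22 with S100a9. Other probe sets of Prkca had ratios from −0.23 to −0.03, and those of Prkar2b from −0.03 to 0.11. The cAMP-responsive genes had medians of −0.16 with S100a8 and −0.01 with S100a9 (12 of 18 compared, 10 lower with S100a8 and 7 with S100a9). Among them were the kinase gene Sik1 (−0.45 with S100a8 and −0.67 with S100a9), the clock gene Per1 (−0.55 with S100a8 and −0.36 with S100a9), the orphan receptor gene Nr4a3 (0.40 with S100a8 and 0.33 with S100a9) and the phosphodiesterase gene Pde4d (0.12 with S100a8 and −0.003 with S100a9). The Nr4a3 signals lay between 82.7 and 109, close to the floor, and its other probe sets lay below the floor.

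Regulators of Ptgs2 transcription and mRNA stability had medians of −0.16 with S100a8 and −0.13 with S100a9 (19 of 24 compared, 13 lower with S100a8 and 14 with S100a9). Zfp36, which encodes tristetraprolin, a protein that destabilises AU-rich mRNAs such as that of Ptgs2, had 160 under S100a8, 205 under S100a9 and 261 in the control. It was 1.63-fold lower with S100a8 and had a log2 ratio of −0.35 with S100a9. Its relative Zfp36l1 was 1.52-fold lower with S100a8 and at −0.23 with S100a9. The other Zfp36l1 probe set had −0.53 with S100a8 and −0.49 with S100a9. The stress kinase gene Mapk14 (0.26 with S100a8 and 0.01 with S100a9) and the transcription factor gene Cebpd (0.18 with S100a8 and −0.17 with S100a9) had the highest ratios with S100a8, though not with S100a9. Other probe sets of Mapk14 went from −0.39 to 0.42, and the other of Cebpd had 0.39 with S100a8 and 0.10 with S100a9. Il1a and Il1b, inducers of Ptgs2, were below the floor.

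**Figure D4:**
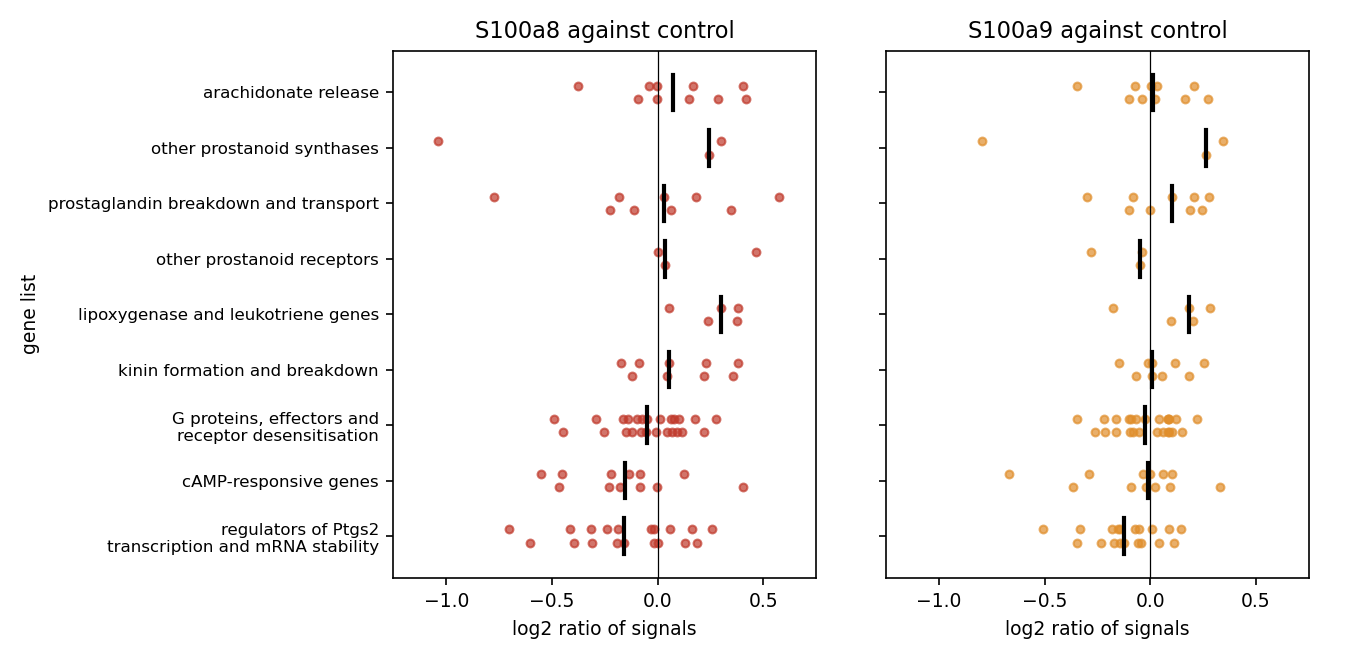
Log2 ratio against control (horizontal axis) of the compared genes of 9 related lists (vertical axis) for S100a8 and S100a9; each point is 1 gene and each black bar the list median. Ptgds, in the list of other prostanoid synthases, is the leftmost point of both panels, at −1.04 for S100a8 and −0.80 for S100a9, and most other points lie within 0.5 of 0.

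Cell type markers were read in the same way. Of 16 epithelial markers 5 were above the floor on each array. With S100a8, 2 of the 5 were below control and 3 above, with a median log2 ratio of 0.16. With S100a9, 4 were below and 1 above, with a median of −0.23. Krt18 had signals of 1032 in S100a8-treated, 1236 in S100a9-treated and 1447 in control cells, Epcam had 113 under S100a8, 85.5 under S100a9 and 101 in the control, and the defining genes Cdh1, Krt8 and Vil1 were below the floor. Of 11 fibroblast markers 6 were compared, with 6 below control under S100a8 and 5 under S100a9. Their median log2 ratio was −0.49 with S100a8, below the −0.34 of the compared members. With S100a9 it was −0.17, above the −0.32 of the compared members. The listed Thy1, Fap, Lum, Acta2 and Postn were below the floor on their brightest probe sets. At least 1.5-fold lower were 3 of the 6 with S100a8, against 1.91% of all genes, and 1 with S100a9, against 0.853%. These were Pdgfrb (−0.92 with S100a8 and −0.76 with S100a9) and, with S100a8 alone, Dcn (−0.92 with S100a8 and −0.28 with S100a9) and Pdgfra (−0.69 with S100a8 and −0.17 with S100a9). The other probe set of Pdgfra had 0.23 with S100a8 and 0.10 with S100a9. The summed signal over the list was 10939 for S100a8, 11979 for S100a9 and 12176 for the control, and most of it was Col1a2, with 7385 under S100a8, 7839 under S100a9 and 7467 in the control. Col1a2 was counted as below control with S100a8 at a log2 ratio of only −0.02. Its other probe sets disagreed, with 0.28 (S100a8) and 0.22 (S100a9) on 1423110_at and −1.20 (S100a8) and −1.01 (S100a9) on 1446326_at. The cultures were of 1 cell line, and which cells these marker signals came from was not tested. Any link of the fibroblast markers to the lower Ptges, Ptgs2 and Ptgds signals was not tested either. Of 16 macrophage and granulocyte markers 9 were compared, with 8 above control under S100a8 and 7 under S100a9, median log2 ratios of 0.38 with S100a8 and 0.23 with S100a9, and a summed signal of 2904 for S100a8, 3078 for S100a9 and 2794 for the control. Their defining gene Ptprc was below the floor, with at most 44.9 on its brightest probe set. Fcer1g, Mpo, Itgb2 and Laptm5 of this list had signals between 72.3 and 128, close to the floor. Other probe sets of Csf1r, also listed, had log2 ratios from 0.28 to 0.40 with S100a8 and from −0.28 to 0.07 with S100a9. The compared mast cell, endothelial and lymphoid markers were 1 of 8, 3 of 9 and 3 of 9, in that order. The summed signals of the mast cell markers were 401 for S100a8, 333 for S100a9 and 344 for the control. Those of the endothelial markers were 561 for S100a8, 493 for S100a9 and 487 for the control, and those of the lymphoid markers 1173 for S100a8, 982 for S100a9 and 1048 for the control. All these sums include genes below the floor. Most of the lymphoid sum was Cd3e, with 759 under S100a8, 613 under S100a9 and 686 in the control. The largest part of the macrophage and granulocyte sum was Cd14, with 1075 under S100a8, 1418 under S100a9 and 1413 in the control.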

How the data were processed

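Total RNA of 3 CT26.WT cultures was measured, 1 array each. The deposited intensities are MAS5 signals, per the submitters' processing notes. Neither a version nor a scaling target of MAS5 is stated, and detection calls were not used here. Since MAS5 subtracts mismatch signal, dim values are noisy. The table held 45101 probe sets. The platform annotation, which can be old, gave 34945 of them 1 gene symbol, gave 932 several and did not list 9160, and only the first kind was used. Of these, 34741 matched a RefSeq gene table (GRCm38.p6) by Entrez number, with 0 symbols changed.

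From the deposited intensities, values under the 50th percentile (the floor, with 64 control probe sets left out) were set to it and log2 was taken. A gene's brightest probe set by mean log2 signal stands for it. Ratios and folds were computed here, and a fold with 1 array at the floor is a lower bound. With 1 array per group no test was made, and precision is limited by the number of arrays. The script was tested on simulated data. Python 3.11.15, numpy 2.4.6 and pandas 2.3.3 were used.

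The members and lists were chosen with earlier results of these data known. The text names each member, up to 2 genes with the lowest and 2 with the highest ratios with either protein of each related list, and the 5 genes nearest to any member at least 2-fold from control. Hpgd, Kng1, Klkb1, Il1a, Il1b, Cysltr2, the marker genes and the neighbouring genes were named after their values were seen. There were 9 alternatives: each array centred on its median, quantiles equalised, the floor lowered to the 30th or raised to the 65th percentile, log2(value + 1) without a floor, dim genes kept, probe sets averaged per gene, those ending in _x_at or _s_at taken last, and a size of 1.5-fold. The second-brightest probe set was added after the data were seen.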

Additional observations from a re-analysis of the deposited data

How the results depend on the processing

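With the mean of all probe sets, 0 members were at least 2-fold lower than control with S100a8 and 0 with S100a9, in place of 1 each, since Bdkrb2 then had log2 ratios of −0.50 with S100a8 and −0.51 with S100a9. With the second-brightest probe set of each gene, chosen after seeing the data, the counts were again 0, and Bdkrb2 reversed to 0.55 with S100a8 and 0.19 with S100a9. Under the other 8 settings the counts stayed at 1. All 8 read Bdkrb2 from its brightest probe set alone, so they say nothing about its other probe set. Among them, keeping dim genes and the 1.5-fold size could not remove Bdkrb2 from the count. Ptgs2 and Ptges stayed below control under all 10 settings with either protein. Only median centring, equalised quantiles, the mean of all probe sets and the second-brightest probe set changed the ratios of these 2 genes beyond rounding. The other settings could not turn their sign, since the signals lay well above the floor, and so say nothing about it. Ptges ranged from −0.90 to −0.30 with S100a8 and from −0.82 to −0.27 with S100a9, and Ptgs2 from −0.43 to −0.10 with S100a8 and from −0.26 to −0.21 with S100a9. For S100a9 against S100a8, 0 members were at least 2-fold lower under every setting, and the Ptgs2 ratio changed sign with the probe set, from −0.15 to 0.21. Of the related genes, 1 was at least 2-fold lower with S100a8. That count was 2 with probe sets ending in _x_at or _s_at taken last, 2 with the second-brightest probe set and 4 at the 1.5-fold size. With S100a9 it was 0, against 1 with the mean of all probe sets, 1 with the second-brightest probe set and 2 at the 1.5-fold size. No paired analysis was possible because each group held 1 array. Without replicates, no difference here has an error of its own, and signals near the floor are the least certain.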

Other observations

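Slco4a1, the organic anion transporter gene, differed between the 2 proteins on both of its probe sets, as noticed after the values were seen. Its signals were 672 with S100a9 and 483 with S100a8 on 1438160_x_at, a log2 ratio of 0.48, and 512 with S100a9 and 310 with S100a8 on 1455803_at, a ratio of 0.72. On 1455803_at the S100a8 signal was 2.07-fold below the control's 643 and the S100a9 signal 1.26-fold below it. This difference between the proteins was not tested.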
